A study of Mus musculus with 2 samples.

Results

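The genes described here are 44 genes of fatty acid oxidation and lipid fuel use, examined in a map of Sap130 occupancy in the embryonic mouse heart. They were listed by function: coactivators of the PGC-1 family, proteins of fatty acid uptake, triglyceride breakdown and acyl-CoA synthesis, the carnitine shuttle, the enzymes of mitochondrial β-oxidation, and enzymes that set the choice of fuel or use ketone bodies. A gene was counted when a peak carried its symbol. Of the 44 genes, 36 had such a peak, with 51 peaks among the 16697 of the whole table. Sap130 belongs to the Sin3 complex, which removes acetyl groups from histones. The data come from 1 chromatin immunoprecipitation (ChIP) library made with a rabbit antibody to Sap130 from heart at E13.5 and 1 library of input DNA, which was not precipitated and is labelled E13.6. Both are labelled as wild type on the B6 background, and no other treatment is named. There was no replicate, no read depth is given, and each statement below describes a single peak list, so no test between groups was possible.

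The heart burns fatty acids as its main fuel after birth, whereas the embryonic heart relies more on glucose and lactate. Fatty acids enter the cell with the help of carriers, are joined to coenzyme A, cross the mitochondrial membranes as carnitine esters and are shortened stepwise by a dehydrogenase, a hydratase, a second dehydrogenase and a thiolase. The PGC-1 coactivators raise the transcription of these genes together with nuclear receptors of the PPAR and ERR families. The table gives the place of each peak and the transcript named for it, with no height or p-value. A peak says where the antibody enriched DNA, and nothing on whether the gene was expressed. Of 8 heart genes looked up (Nkx2-5, Gata4, Tbx5, Myh6, Myh7, Tnnt2, Actc1 and Nppa), 7 had a named peak, against 52.7% of protein-coding genes. In 6 of the 8 a named peak was centred within 1 kb of the named start, against 50.6%. The start lay inside a named peak in 3 of the 8, against 43%. Nppa had no named peak. Counts over 8 chosen genes are no measure of RNA and no check of the tissue. Position below means the row in the authors' table, counted from 1 at its top; by what the authors ordered the rows is not stated. Distances run from the first base of the transcript that a peak carries, negative upstream, and carry an uncertainty of 1 bp.

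The starts of 6 of these genes are shown here as RefSeq promoter windows of build GRCm38.p6, each 300 bases long from 250 before the start, 5′ to 3′ on the strand of the gene. Capitals mark CpG dinucleotides. Pprc1 is shown because its peak came earliest of the 36 genes, and Hadhb, Acsl3 and Oxct1 because the peak over their start carries the name of another gene. Acsl6 holds the longest nuclear receptor motif found in the windows and had no peak. Cd36, and the window at the second RefSeq start of Acsl6, were added after their values were seen, as starts with no peak that are poor and rich in CpG.
Pprc1 (chr19:46056289-46056588, plus strand): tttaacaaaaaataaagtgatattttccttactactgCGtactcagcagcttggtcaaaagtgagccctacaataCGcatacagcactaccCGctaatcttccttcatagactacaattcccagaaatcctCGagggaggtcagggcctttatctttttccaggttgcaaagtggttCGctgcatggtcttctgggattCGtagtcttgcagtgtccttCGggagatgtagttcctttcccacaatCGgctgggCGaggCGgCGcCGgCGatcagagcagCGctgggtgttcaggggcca
Hadhb (chr5:30155003-30155302, plus strand): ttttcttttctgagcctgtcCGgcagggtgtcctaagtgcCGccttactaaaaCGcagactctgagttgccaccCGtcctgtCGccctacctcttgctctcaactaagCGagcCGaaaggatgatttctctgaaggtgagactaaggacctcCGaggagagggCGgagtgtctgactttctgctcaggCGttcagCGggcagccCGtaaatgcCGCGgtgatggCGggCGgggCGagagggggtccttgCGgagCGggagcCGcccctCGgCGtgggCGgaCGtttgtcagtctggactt
Acsl3 (chr1:78657575-78657874, plus strand): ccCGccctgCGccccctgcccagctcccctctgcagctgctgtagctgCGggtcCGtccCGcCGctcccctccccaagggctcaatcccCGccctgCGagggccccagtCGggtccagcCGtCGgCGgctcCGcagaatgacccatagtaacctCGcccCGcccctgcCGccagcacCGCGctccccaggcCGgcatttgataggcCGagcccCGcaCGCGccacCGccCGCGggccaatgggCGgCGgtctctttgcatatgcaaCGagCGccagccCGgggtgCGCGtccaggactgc
Oxct1 (chr15:4026178-4026477, plus strand): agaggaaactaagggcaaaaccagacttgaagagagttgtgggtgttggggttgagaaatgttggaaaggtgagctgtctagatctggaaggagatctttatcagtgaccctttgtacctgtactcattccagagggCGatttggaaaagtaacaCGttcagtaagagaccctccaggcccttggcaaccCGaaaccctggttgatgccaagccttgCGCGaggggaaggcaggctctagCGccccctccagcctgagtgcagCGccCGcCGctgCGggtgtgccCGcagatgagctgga
Cd36 (chr5:17835847-17836146, minus strand): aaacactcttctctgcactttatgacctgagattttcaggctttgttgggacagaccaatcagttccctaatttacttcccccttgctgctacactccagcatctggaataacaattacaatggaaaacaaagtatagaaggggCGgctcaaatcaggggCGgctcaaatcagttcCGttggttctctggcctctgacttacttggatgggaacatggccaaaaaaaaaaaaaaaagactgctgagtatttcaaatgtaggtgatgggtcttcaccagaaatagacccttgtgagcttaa
Acsl6, RefSeq start number 1 (chr11:54303574-54303873, plus strand): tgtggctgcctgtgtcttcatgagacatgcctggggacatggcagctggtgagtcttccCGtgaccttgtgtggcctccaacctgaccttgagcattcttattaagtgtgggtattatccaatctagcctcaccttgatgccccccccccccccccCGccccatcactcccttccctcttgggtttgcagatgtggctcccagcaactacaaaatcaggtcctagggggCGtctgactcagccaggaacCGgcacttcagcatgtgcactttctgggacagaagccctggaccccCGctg
Acsl6, RefSeq start number 2 (chr11:54303954-54304253, plus strand): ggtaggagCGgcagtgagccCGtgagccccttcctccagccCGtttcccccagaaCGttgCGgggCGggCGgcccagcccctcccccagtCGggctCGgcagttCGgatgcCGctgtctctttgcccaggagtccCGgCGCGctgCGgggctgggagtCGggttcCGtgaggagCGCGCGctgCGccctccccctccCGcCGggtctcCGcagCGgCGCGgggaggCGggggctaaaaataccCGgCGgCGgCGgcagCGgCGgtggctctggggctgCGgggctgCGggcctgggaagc

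The Pprc1 and Hadhb windows lay wholly under a peak, with 14 and 24 CpG. The Acsl3 and Oxct1 windows lay under a peak over 100 and 157 of their bases, with 33 and 11 CpG. The Cd36 window held 3 CpG and the first Acsl6 window 5, and no peak touched either. The second Acsl6 window held 36 CpG, the most of the 7 shown, and no peak touched it.

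Fatty acid genes carried a named Sap130 peak more often than the average gene. Of the 44 genes, 36 had a named peak, 81.8%, against 52.7% of 20953 protein-coding genes. The same 36 had a promoter peak, defined by a midpoint within 1 kb of the named start, 81.8% of the 44 against 50.6% of protein-coding genes. Of all protein-coding genes with a named peak, 96.1% had a promoter peak, so that 36 of 36 is close to the background. The start site itself lay inside a named peak for 27 of 44 genes, 61.4%, against 43% of protein-coding genes. Among genes with a named peak this was 27 of 36, a smaller share than the 9019 of 11034 protein-coding genes. Of the 44 genes, 13 had 2 or more named peaks, 29.5%, against 12.2%. Among genes with a named peak these were 13 of 36, against 2553 of 11034. These are shares of a chosen list and were not tested. By role, every gene had a named peak among the PGC-1 coactivators (3 of 3), the genes of triglyceride breakdown (2 of 2), the carnitine shuttle (3 of 3), the acyl-CoA dehydrogenases (4 of 4), electron transfer (3 of 3), the auxiliary enzymes (3 of 3) and the pyruvate dehydrogenase kinases (2 of 2). The genes without one were Cd36 and Fabp4 among 7 genes of uptake and binding, Acsl3 and Acsl6 among 5 acyl-CoA synthetases, Hadhb among 6 enzymes of the later steps, Acaca and Acacb among 3 genes of malonyl-CoA, and Oxct1 among 3 genes of ketone body use.

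**Figure D1:**
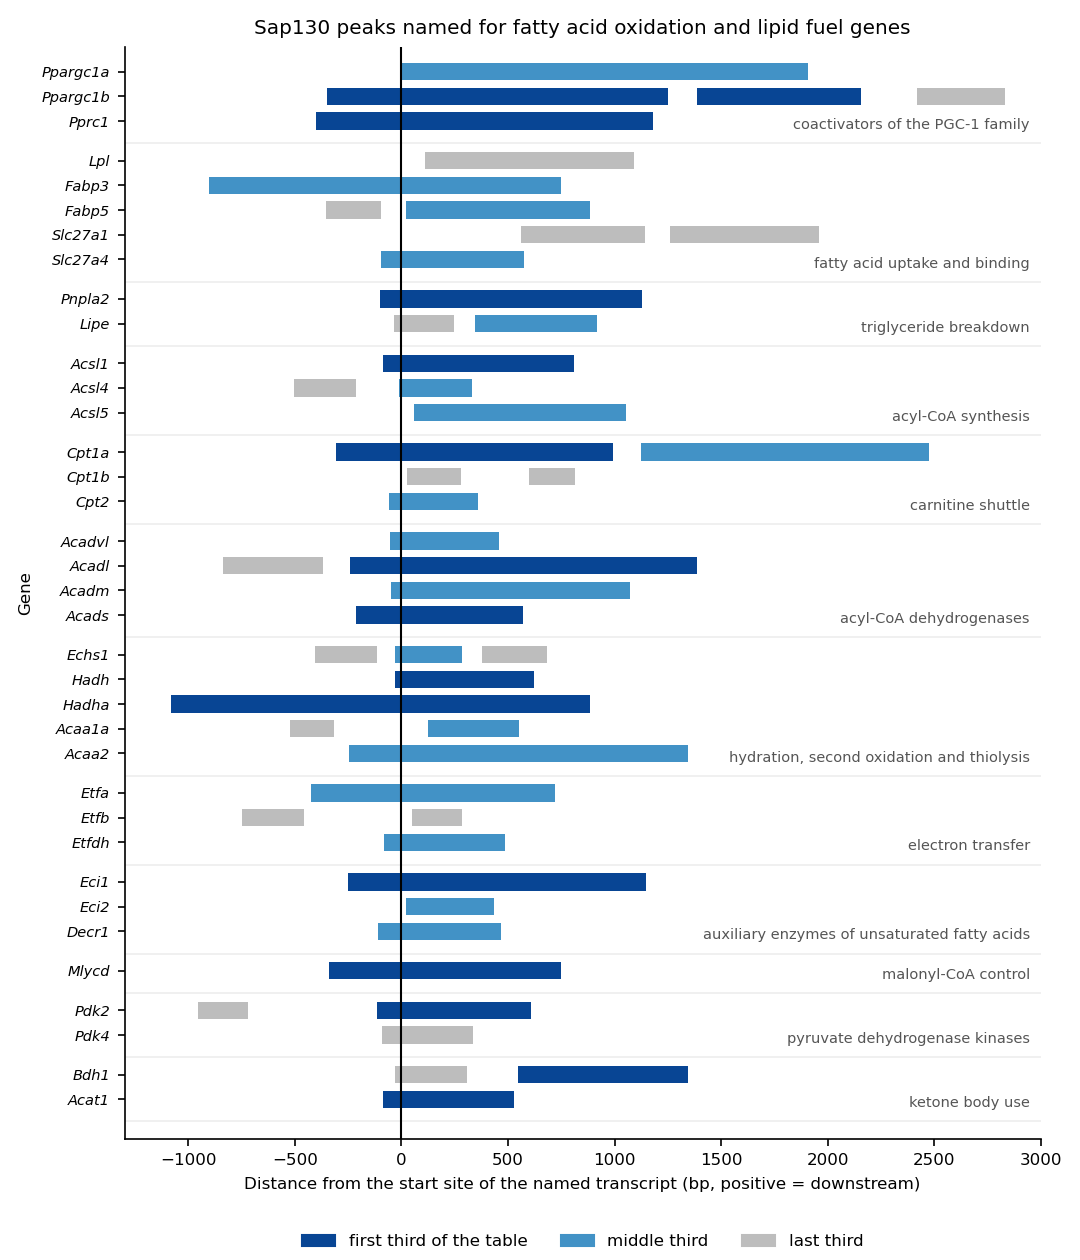
Each bar is 1 of the 51 peaks named for 36 genes, drawn to scale from its upstream to its downstream edge in bp from the named start site (vertical line), with genes grouped by role and colours giving the first, middle or last part of the authors' table by equal numbers of rows. Of the 51 peaks, 42 were centred downstream of the start and 27 contained it; all peaks of Ppargc1a, Lpl, Slc27a1, Acsl5, Cpt1b and Eci2 lay wholly downstream.

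Peaks sat mainly just inside the gene, as did most peaks named for protein-coding genes. Of the 51 peaks, 82.4% were centred downstream of the start, against 77.4% of the 14578 peaks named for protein-coding genes, and 25 were centred in the first intron, 49% against 38.8%. Another 13 were centred in the first exon, 25.5% against 32.5%. The earliest peak of each of the 36 genes was centred at a median of 271 bp downstream, with quartiles at 175 and 512 bp, against a median of 205 bp for all 11034 named protein-coding genes. It contained the start in 25 of 36 genes, 69.4%, against 79.3%. The only genes of the 36 with an earliest peak centred upstream were Hadha, at -100 bp, and Fabp3, at -76 bp. Widths of the 51 peaks ran from 208 to 1966 bp with a median of 619 bp, against a median of 722 bp for peaks named for protein-coding genes.

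In the authors' order the earliest peaks of these genes had a median position of 7227.5, against 5970.5 for all named protein-coding genes. The 95% interval of the median over the 36 genes was 5192 to 9711. It reflects the spread among these chosen genes in 1 peak list, not between experiments, and the difference was not tested. With the table divided into 3 parts of equal length, the first held the earliest peak of 14 of 36 genes, 38.9% against 46.9%, the middle one 17, 47.2% against 37%, and the last 5, 13.9% against 16.1%. The first 1000 rows held 1 of the 36 genes, Pprc1, while 8.6% of all named protein-coding genes stood there. Across the whole table width fell as the row number rose, as the plot of width by row shows. Among peaks of the 36 genes, 24 of 51 were wider than the median named peak in the same 1000 rows.

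**Figure D2:**
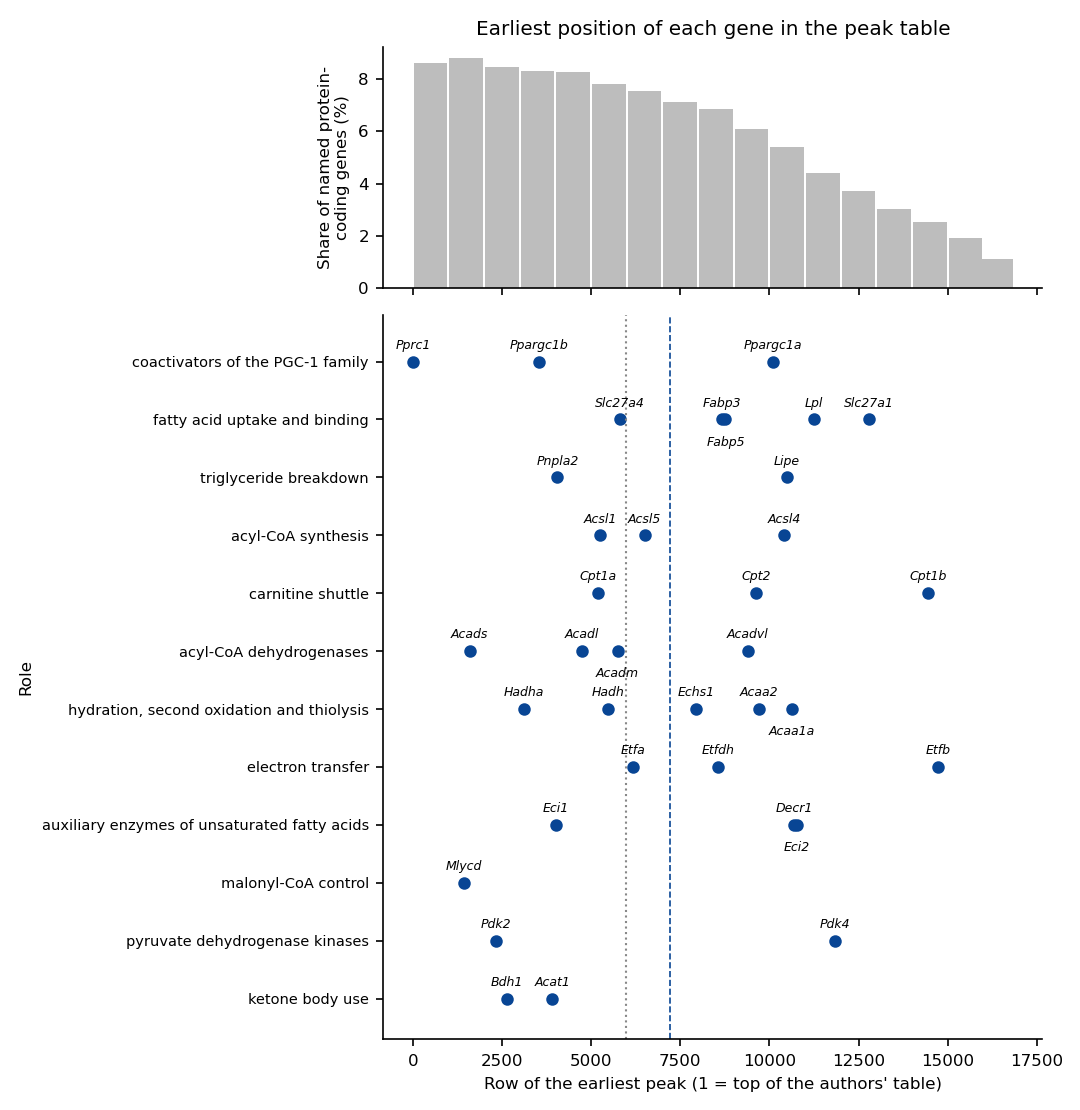
The upper panel gives the share of 11034 named protein-coding genes (%) whose earliest peak falls in each 1000 rows, and the lower panel the row of the earliest peak of each of the 36 genes by role. The dashed line is the median of the 36 genes (7227.5) and the dotted line that of all named protein-coding genes (5970.5); Pprc1 stands at row 20 and Etfb, the last, at row 14728.

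The 3 PGC-1 coactivators, which raise mitochondrial gene transcription, differed widely in their peaks. Pprc1, which encodes the growth-regulated member PRC, had a single peak of 1582 bp at position 20 (chromosome 19, 46056139 to 46057721). It reached from -400 to 1182 bp. Ppargc1b, the gene of PGC-1β, had 3 peaks in a row (chromosome 18). The first, of 1600 bp at position 3543 (61399181 to 61400781), contained the start, and those of 770 and 413 bp, at positions 4843 and 14949, were centred 1774 and 2626.5 bp downstream in the first intron. Gaps of 139 and 261 bp separated them. Ppargc1a, the gene of PGC-1α and the best known inducer of heart mitochondria, had 1 named peak, of 1905 bp at position 10096 (chromosome 5, 51552012 to 51553917), which began 4 bp downstream of the named start at 51553921. Of the earliest peaks of the 36 genes this was the second widest after that of Hadha, at 1966 bp.

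Ppargc1a also showed peaks far from the named start. The start that the peak table uses differs from the start of the RefSeq promoter window, at 51567725, which lay 13808 bp from the nearest edge of any peak. The RefSeq span of the gene reaches much farther upstream, to 52115853, 548128 bp from that start. At this 5′ end lay 4 peaks with no gene named. The widest, of 1680 bp at position 9539 (52114514 to 52116194), contained the end of the span, and those at positions 12288, 11641 and 15553 followed within 2943 bp inside it. They were 548, 400 and 238 bp wide. These peaks are not counted among the 51, and whether a transcript starts there in the heart cannot be read from a peak list.

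**Figure D3:**
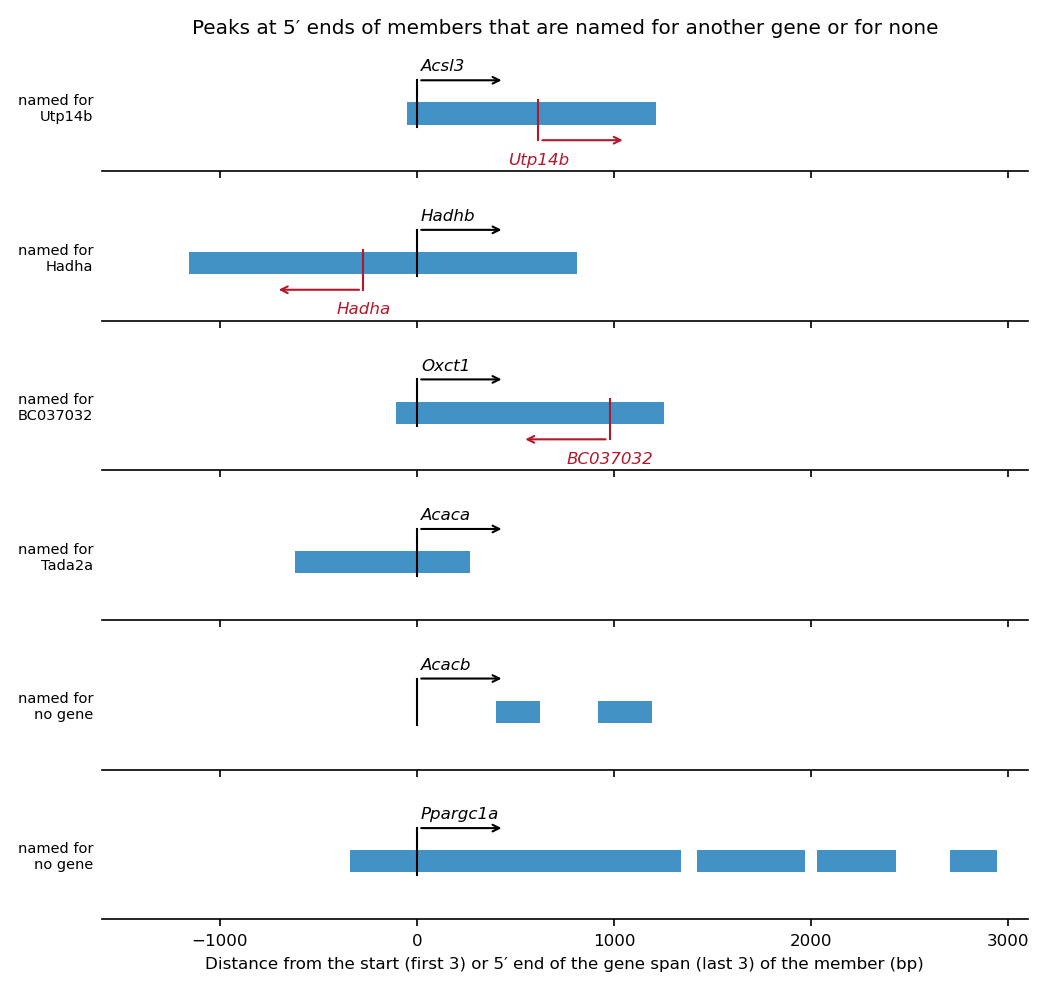
Peaks (blue bars, in bp, to scale) at the 5′ ends of 6 genes whose peaks there carry another gene's name or none, with the member's start or span end at 0 (black). For Acsl3, Hadhb and Oxct1 the start of the partner transcript that the peak carries is in red, and the start of Tada2a is not drawn. For these genes only the peak over the start is drawn. A second peak named for Utp14b, 1453 to 1818 bp inside Acsl3, is left out. The peaks over Acsl3, Hadhb and Oxct1 contain both starts, that at Acaca contains the 5′ end of its span, and those at Acacb begin 400 bp inside it.

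Of the 8 genes without a named peak, 3 had their start inside a peak that carries a neighbour's name. Hadha and Hadhb encode the α and β subunits of the mitochondrial trifunctional protein, which carries out the last 3 steps of long-chain β-oxidation. Their starts face away from each other and lie 273 bp apart. A single peak of 1966 bp at position 3129 (chromosome 5, 30154097 to 30156063), the widest of the 51, covered both and is named for Hadha. Acsl3, an acyl-CoA synthetase of lipid droplets, starts 615 bp before Utp14b, a ribosome biogenesis gene on the same strand. A peak named for Utp14b, of 1263 bp at position 4321 (chromosome 1, 78657775 to 78659038), contained both starts. Another with that name, of 365 bp at position 14304, lay 1453 to 1818 bp inside Acsl3. Oxct1 encodes the enzyme that commits ketone bodies to oxidation. Its start lay inside a peak 1360 bp wide at position 6885 (on chromosome 15, 4026321 to 4027681), named for the non-coding gene BC037032 on the other strand, whose start is 978 bp inside Oxct1.

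The acetyl-CoA carboxylase genes had peaks at the far 5′ end of their spans. Their product, malonyl-CoA, blocks entry of fatty acids into mitochondria. Acaca, which encodes the cytosolic enzyme of fatty acid synthesis, begins at 84129635 on chromosome 11, and a peak of 888 bp at position 502, named for the acetyltransferase adaptor gene Tada2a, contained that site (84129014 to 84129902). A second early peak, of 793 bp at position 712 with no gene named (84179775 to 84180568), was centred 50536.5 bp inside the gene. It ended 14870 bp before the start of the RefSeq window. Acacb encodes the enzyme at the mitochondrial surface. It had 2 narrow peaks with no gene named, of 226 bp at position 12879 and 272 bp at position 16234, which began 400 and 920 bp inside the 5′ end of its span (chromosome 5, 114146321). Another, of 383 bp at position 11187, lay 29647.5 bp inside. Mlycd, which encodes the decarboxylase that removes malonyl-CoA, had a named peak 1093 bp wide at position 1436 (on chromosome 8, 119394550 to 119395643). It was the second earliest of the 36 genes and contained the start.

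No peak lay near the remaining 3 genes. Cd36 encodes the main fatty acid translocase of heart and endothelium, Fabp4 a fatty acid binding protein of adipocytes and capillary endothelium, and Acsl6 an acyl-CoA synthetase best known from brain. The peak nearest to the RefSeq start of Cd36, named for Sema3c, was 260925 bp away. The nearest to either end of Fabp4 lay 122373 bp away and the nearest to any RefSeq start of Acsl6 122865 bp away. The spans of Cd36, Fabp4 and Acsl6 contained no peak of any name. Counting any peak within 1 kb of a RefSeq start or of the 5′ end of the span, whatever its name, 34 of the 36 genes with a RefSeq window had one, 94.4%, against 57.4% of 16783 protein-coding genes with a window. Cd36 and Acsl6 were those without. This count was chosen after the data were seen. With the RefSeq start inside any peak the count was 26 of 36, 72.2% against 47.9%.

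Of the 5 genes of fatty acid uptake and binding with a named peak, only Slc27a4 stood before the median of the 36 genes. Slc27a4 encodes a fatty acid transport protein and had a peak of 674 bp at position 5803 that contained the start (chromosome 2, 29802582 to 29803256). Fabp3 encodes the fatty acid binding protein of heart muscle. Its peak, of 1652 bp at position 8668 (chromosome 4, 130307876 to 130309528), reached from -902 to 750 bp. Fabp5, of the same family, had peaks of 864 and 258 bp at positions 8770 and 12867, on either side of a start that neither contained. The peak of Lpl, which encodes the lipase that frees fatty acids from lipoproteins, was 983 bp wide at position 11259 and began 110 bp downstream of the start. Slc27a1, a transport protein gene of heart and muscle, had 2 peaks of 581 and 701 bp, at positions 12789 and 14115, which began 560 and 1260 bp downstream of the named start. Each contained 1 of the other RefSeq starts of Slc27a1, at 71569597 and 71570594 on chromosome 8.

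In the pairs of lipases and of kinases, 1 gene had its earliest peak in the first of the 3 parts of the table and the other later. In triglyceride breakdown, Pnpla2, the gene of the first lipase ATGL, had a peak 1229 bp wide at position 4058 (on chromosome 7, 141455087 to 141456316). Lipe, the gene of hormone-sensitive lipase, had narrower peaks of 574 and 281 bp at positions 10495 and 11157, and the second contained the start. Among pyruvate dehydrogenase kinases, which hold back glucose oxidation, Pdk2 had a peak 720 bp wide over the start at position 2342 (on chromosome 11, 95040765 to 95041485) and a narrow one of 237 bp upstream, at position 14880. Pdk4, the kinase gene known to be induced by fatty acids and fasting, had 1 peak of 427 bp at position 11839. Positions order the peaks within this list and are no measure of binding.

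In the carnitine shuttle the peaks of Cpt1a were wide and those of Cpt1b narrow. Cpt1a encodes the carnitine palmitoyltransferase of liver and of the fetal heart, and Cpt1b the form of adult heart and muscle. Cpt1a had a peak 1302 bp wide over its start at position 5192 (on chromosome 19, 3322992 to 3324294) and another of 1349 bp at position 8981, 133 bp farther downstream. Cpt1b had 2 peaks of 253 and 219 bp at positions 14442 and 14699 (chromosome 15), which began 27 and 597 bp downstream of the start and did not contain it. The summed width was therefore 2651 bp at Cpt1a and 472 bp at Cpt1b. Width also fell with row across the whole table. The median named peak was 959 bp wide in rows 5001 to 6000 and 719 bp in rows 8001 to 9000, where the Cpt1a peaks stood. In rows 14001 to 15000, with the Cpt1b peaks, it was 304.5 bp. Cpt2, the gene of the enzyme on the inner membrane, had a peak of 419 bp over its start at position 9637. Of the acyl-CoA synthetase genes with a named peak, Acsl1, the main form of heart, came first, with a peak 897 bp wide over its start at position 5261 (on chromosome 8, 46470953 to 46471850). Acsl5 had a peak of 995 bp at position 6501 that began 59 bp downstream of the start, and Acsl4 peaks of 346 and 292 bp at positions 10408 and 14246.

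All 4 acyl-CoA dehydrogenase genes, whose enzymes start each β-oxidation cycle, had the start inside a named peak. The share was 43% of all protein-coding genes, and 9019 of the 11034 with a named peak. Acads, for short chains, came first, with 784 bp at position 1602 (chromosome 5, 115118775 to 115119559). Acadl, for long chains, followed with 1630 bp at position 4750 and a separate upstream peak of 470 bp at position 15960. Acadm, for medium chains, had 1118 bp at position 5743, and Acadvl, for very long chains, 513 bp at position 9402. Among the enzymes of the later steps, Hadh, the short-chain hydroxyacyl-CoA dehydrogenase gene, had a peak of 654 bp at position 5484. Echs1, the short-chain enoyl-CoA hydratase gene, had 3 peaks (chromosome 7, 140115740 to 140116831), of 314, 305 and 291 bp at positions 7954, 11973 and 13416, with gaps of 85 and 96 bp. The one of 314 bp lay between the others and contained the start. Acaa2, the mitochondrial thiolase gene, had a peak of 1594 bp at position 9711. Acaa1a, which encodes the peroxisomal thiolase, had peaks of 427 and 208 bp at positions 10638 and 15719 on either side of a start that neither contained.

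Etfa and Etfb encode the 2 subunits of the electron transfer flavoprotein, which takes electrons from the dehydrogenases. Etfa had a peak 1143 bp wide over its start at position 6172 (on chromosome 9, 55511524 to 55512667). Etfb had 2 narrow peaks, of 234 bp at position 14728 and 292 bp at position 15436, with the start in the gap of 508 bp between them. Etfdh, the gene of the dehydrogenase that passes these electrons on, had a peak of 570 bp at position 8550. A peak named for the neighbour 4930579G24Rik lay 338 bp upstream of the Etfdh start. The auxiliary enzymes handle unsaturated fatty acids. Eci1 had a peak 1400 bp wide at position 4007 (on chromosome 17, 24426433 to 24427833), Decr1 one of 575 bp at position 10694 and Eci2 one of 415 bp at position 10767. A further peak of 223 bp with no gene named, at position 16388, began 15 bp inside the far 5′ end of the Eci2 span.

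Both ketone body genes with a named peak had their earliest in the first of the 3 parts of the table. So had 46.9% of all named protein-coding genes. Bdh1, the gene of hydroxybutyrate dehydrogenase, had a peak 798 bp wide at position 2632 (on chromosome 16, 31429300 to 31430098), which began 547 bp downstream of the start, and one of 339 bp over the start at position 16117. The RefSeq start of Gm15743 also lay inside the first. Acat1, the gene of the mitochondrial acetoacetyl-CoA thiolase, had a single peak of 619 bp over its start at position 3910 (chromosome 9, 53609820 to 53610439).

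**Figure D4:**
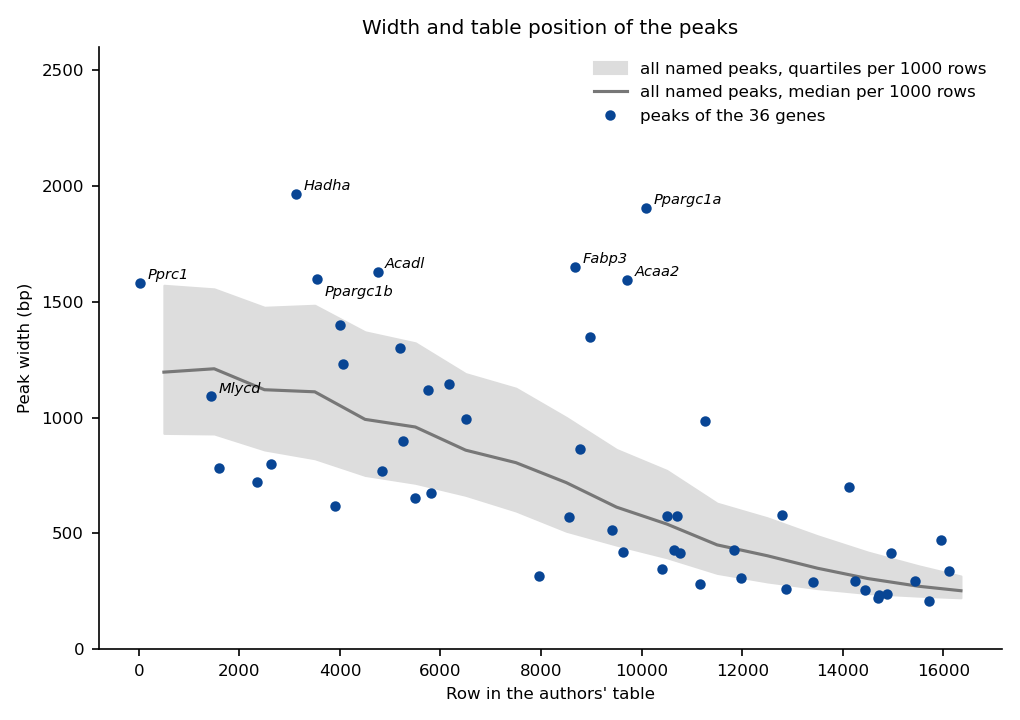
Width (bp) against row in the authors' table for the 51 peaks (points), with the median and quartiles of all 15171 named peaks in each 1000 rows (line and band). Of the 51 peaks, 14 were wider than the upper quartile in their 1000 rows, among them those of Hadha, Ppargc1a, Fabp3 and Acaa2, and after row 12000 all but the 2 peaks of Slc27a1 were under 500 bp.

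Of the 44 genes, 13 had 2 or more named peaks, 29.5% against 12.2% of protein-coding genes. Of these 13 genes, 7 had peaks centred on both sides of the start, and in Fabp5, Acaa1a and Etfb the start lay in the gap between them. No share over all genes was counted for these placements. Gaps between neighbouring peaks of a gene ran from 85 to 605 bp. With gaps under 500 bp closed, the median width was 989 bp in place of 619 bp. In 9 of the 36 genes, 25%, no named peak contained the start. Among all 11034 named protein-coding genes, 9019 had the start inside a named peak, a larger share than the 27 of 36 here. The start was nevertheless within 100 bp of a peak in 6 of the 9, and the others were Lpl, Slc27a1 and Acaa1a. Of the 51 peaks, 4 were centred over 1 kb from the named start, 2 of them at Ppargc1b and 1 each at Slc27a1 and Cpt1a, all downstream. The other peaks, 92.2% of the 51, were centred within 1 kb, against 84.5% of peaks named for protein-coding genes.

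CpG content separated the genes with and without peaks across the genome. The measure is the observed over the expected number of CpG in the 300-base window, expected from its C and G content. Each gene was given 1 window. With a named peak it was the window nearest the start named for the earliest peak, otherwise the first window listed. The choice of window thus depended on the peaks, and how far this widened the contrast was not tested. Of the 16783 protein-coding genes with a window, those with a promoter peak had a median of 0.803 and those without one 0.249. The 36 fatty acid genes with a window had a median of 0.575, with a range of 0.085 to 0.932. Of these, the 29 with a named peak had a median of 0.678. At values from 0.25 to 0.5, 7 of 8 fatty acid genes had a promoter peak, against 24.6% of all genes. One of the 7 is Ppargc1a, whose window lies 13804 bp from the start its peak was named for. Another is Slc27a1, placed here by its first window, at 0.318, whose start lay 616 bp from the nearest peak. Its peaks contained the starts of its other windows, at 0.588 and 0.648, which would place it at 0.5 to 0.75. At 0.5 to 0.75 the count was 14 of 15, against 70.8%. At 0.75 to 1 it was 8 of 10, against 84.1%, and the 2 without were Acsl3 and Hadhb, whose starts lay in a peak named for a neighbour. Below 0.25, where 3.82% of all genes had a promoter peak, none of the 3 fatty acid genes had one (Cd36, Acsl6 and Acaca). Acsl6 is placed there by its first window, at 0.203, and its second window, at 0.835, would place it without a peak at 0.75 to 1. The Acaca window lies 65803 bp from the 5′ end of the span, where the peak named for Tada2a lay. These bins were chosen after the data were seen.

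**Figure D5:**
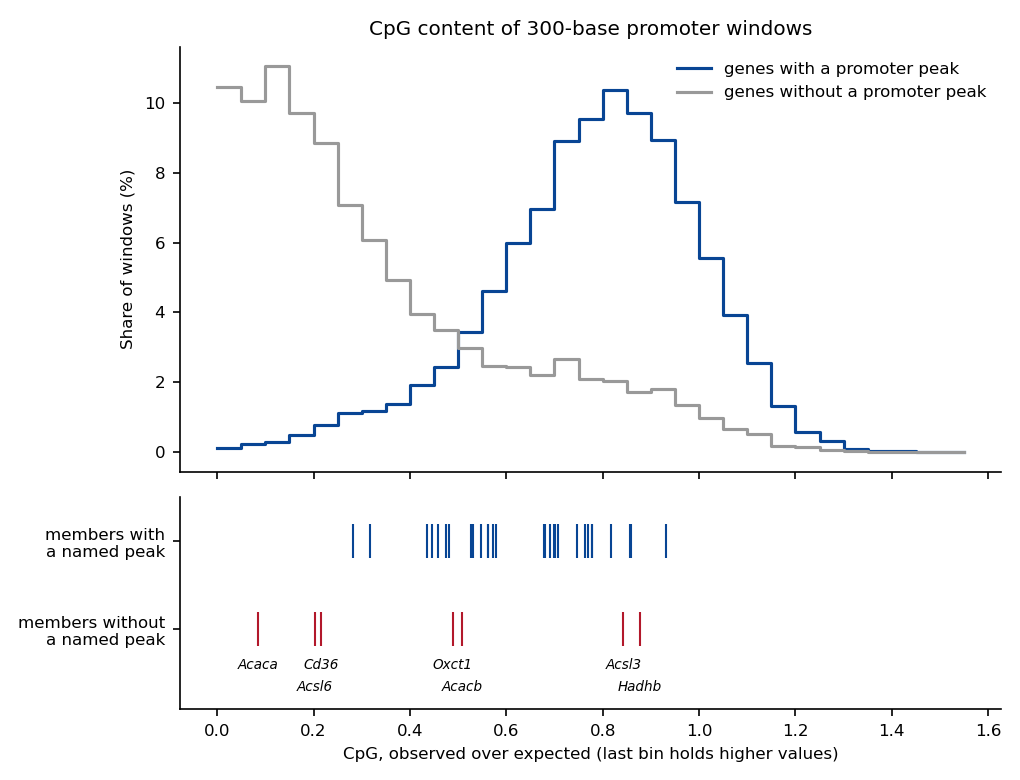
Upper panel, share of windows (%) by observed over expected CpG for 8541 genes with and 8242 without a promoter peak; lower panel, 1 tick for each of the 36 fatty acid genes with a window. The 29 genes with a named peak lie between 0.282 and 0.932, and Acaca, Acsl6 and Cd36, without one, lie below all of them by their first window; the second window of Acsl6, not drawn, is at 0.835.

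Motifs known from promoters of metabolic genes were counted in the same windows on both strands, as a description of letters and not of bound sites. The nuclear receptor half-site AGGTCA occurred in 8 of 36 windows (Acadm, Cd36, Acacb, Echs1, Acsl6, Acadvl, Cpt1a and Pprc1), 22.2% against 13.9% of all windows. Of these 8, Cd36, Acacb and Acsl6 had no named peak. DR1, the element of PPAR receptors made of 2 half-sites 1 base apart, occurred in 0 of 36 and in 0.0536% of all windows. Only the exact letters were counted, so variant elements were missed. No window was available for Ppargc1b, Lpl, Fabp4, Fabp5, Cpt1b, Acaa2, Decr1 and Acat1. The ERR motif TCAAGGTCA, which contains a half-site, occurred in 1 window, the first of Acsl6, read on the other strand as TGACCTTGA from -167 bp. In all windows its share was 0.322%. GGGCGG, the letters of SP factors, occurred in 22 of 36 windows, 61.1% against 48.9%, and CCAAT in 16, 44.4% against 39%. GCGCATGC, a core of the NRF1 motif, occurred in Etfdh, Acadm and Etfa, 8.33% against 3.75%. CCGGAAG of ETS factors occurred in 3 windows against 12.6% of all, CACGTG in 2 against 8.13%, TTCCCGC of E2F factors in 2 against 6.32%, and TATAAA in 1, that of Acacb, against 13.1%. Across all genes GGGCGG was found in 71.9% of windows with a promoter peak and 25% of those without, whereas AGGTCA was found in 10.6% and 17.3%. As for CpG, the choice of window differed between genes with and without a named peak.

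Other genes of the pathway, 90 in number and none of them among the 44, had a promoter peak in 64 cases, 71.1%, against 50.6% of protein-coding genes. The 7 genes listed for AMP-activated protein kinase, its activator Stk11 among them, all had one. So had all 8 genes listed for the pyruvate dehydrogenase complex and its kinases and phosphatases. The lists need not hold every gene of these groups. Prkab2 at position 459 and Stk11 at 562 came first. Of 10 genes of nuclear receptors and their corepressor, 9 had a promoter peak, among them Ppara (position 5581), Esrra (5118) and Nrip1 (7153), and Rxrg had none. A promoter peak was found in 6 of 7 acyl-CoA thioesterase genes, 3 of 4 genes of carnitine handling, where Crat had none, 8 of 11 genes of other acyl-CoA dehydrogenases and mitochondrial enzymes, 8 of 12 lipid droplet genes and 9 of 14 genes of peroxisomal oxidation. Partners of lipoprotein lipase and other carriers had one in 4 of 12 cases. Fabp1, Fabp2, Fabp6 and Fabp7, binding proteins of other tissues, had none, and neither had Gpihbp1, which anchors lipoprotein lipase on endothelium.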

How the data were processed

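Sap130 ChIP-seq of embryonic mouse heart was analysed from the peak table that the authors deposited for 1 ChIP and 1 input library. Per the submitters' processing notes, Bowtie 1.1.2, MACS2 2.1.0.20140616 and the builds GRCm38 and mm10 were used; their settings are not stated there. Per the file headers, a row holds a row number, chromosome, start, end and gene; unnamed columns hold the transcript. The start site is the transcript's first base with 1 added, which equals a RefSeq start for 72.9% of 10954 peaks. The files hold no score, signal or count per peak, so depth and precision are unknown. Peaks were assigned to 20953 protein-coding genes (RefSeq, GRCm38.p6, autosomes and X) by accession, then symbol or synonym. Promoter windows are from RefSeq, and 36 of the 44 genes matched. Members and lists were chosen with earlier results of these data known; lists were described by counts, with no test. All 44 genes are named, with full values for the earliest of each role and those without a named peak; genes of other lists beyond the 3 earliest were named after their values were seen. Some results of the other pathway genes are not reported here. Peak geometry was checked on planted data. Python 3.11.15, pandas 2.3.3, NumPy 2.4.6, SciPy 1.17.1 and matplotlib 3.10.9 were used. Alternatives were other windows, part of the table, wide peaks, any gene name, merged peaks and 1 strand.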

Additional observations from a re-analysis of the deposited data

How the results depend on the processing

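No paired analysis was possible because each group has 1 library. Peaks up to the middle row of the table named 19 of the 44 genes, all at the promoter, 43.2% against 34.4% of protein-coding genes, a smaller gap than over the whole table, and held the start of 17, 38.6% against 32.2%. Peaks of the median width or wider named 21 genes, 20 of them at the promoter (45.5% against 33.6%). Of the 90 other pathway genes, 40 and 38 then had a promoter peak, in place of 64. The 20 glycolysis genes with a promoter peak, 18, numbered 11 up to the middle row and 10 with a 500 bp window, where the 44 genes gave 28 (63.6% against 45.5%). The median width was 989 bp with peaks less than 500 bp apart merged, and AGGTCA was found in 3 windows on the gene strand alone, in place of 8. The cause was not tested. Other alternatives moved counts and medians by less than 1.5 times, apart from motifs on the gene strand alone: GGGCGG (14 in place of 22), TCAAGGTCA (0 in place of 1), TTCCCGC (0 in place of 2), and CCGGAAG and GCGCATGC (2 in place of 3 each). Counting any peak within 1 kb of any start or of the 5′ end of the span, chosen after the data were seen, gave 41 of the 44 genes. The share over all genes was counted only for those with a RefSeq window. There it was 94.4% of 36 fatty acid genes against 57.4% of 16783. Depth is unknown, so a gene without a peak may lie under the limit of detection.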

Other observations

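Glycolysis, the other fuel pathway of the embryonic heart, is given beside the fatty acid genes without a test. Of 20 genes of glucose uptake and glycolysis, 18 had a promoter peak, 90% against 50.6% of protein-coding genes, and 19 a named peak, 95% against 52.7%; Aldoc had none, and the peak of Pgam1 was centred 1021 bp downstream. Their median earliest position was 6651, against 5970.5 for all named protein-coding genes. The 5 earliest were Aldoa at position 557, Hk2 at 743, Ldha at 797, Pkm at 858 and Slc2a1, the gene of the glucose transporter GLUT1, at 1068. Their peaks were 2065, 2133, 2156, 1859 and 1523 bp wide. The 3 latest of the 19 were Eno1 at position 12010, Eno3 at 13035 and Ldhb at 13612, with widths of 412, 229 and 419 bp.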
